A study of Mus musculus with 8 samples.

Results

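The genes described here encode subunits of the Polycomb repressive complexes. They were chosen by symbol alone, from the names of the catalytic, scaffold and accessory subunits of Polycomb repressive complex 2 (PRC2) and of the RING, PCGF, CBX and PHC subunits of Polycomb repressive complex 1 (PRC1). The names match 23 mouse genes of the RefSeq annotation, and 11 of them are among the 3160 genes of the deposited table: Ezh2, Ezh1, Suz12, Eed, Jarid2 and Mtf2 for PRC2, and Rnf2, Pcgf3, Phc1, Cbx6 and Cbx7 for PRC1. The other 12 genes, among them Bmi1, Ring1 and Phf19, were not analysed here. All 11 lie within the limits on input counts and on the spread of the ratios that the values of the whole table keep to.

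Polycomb complexes keep developmental genes silent. PRC2 methylates lysine 27 of histone H3 through its catalytic subunit Ezh2 or Ezh1, and needs Suz12 and Eed for its activity and stability. PRC1 is built around a RING protein such as Rnf2 that adds ubiquitin to histone H2A; in canonical PRC1 a CBX protein reads the methyl mark that PRC2 sets. In ES cells both complexes lie on the promoters of genes that are switched on only later, and PRC2 is needed for orderly differentiation rather than for self-renewal.

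RNA was sequenced from E14Tg2A, a mouse ES cell line of 129/Ola origin, grown in serum and LIF (ES, day 0), and from epiblast-like aggregates (ELA), the same line after 2 days as floating aggregates in a chemically defined medium without serum or LIF. All cells were treated with cycloheximide to stall ribosomes. From each stage the study prepared total RNA of the lysate (input) and RNA pulled down with an antibody against the endogenous ribosomal protein Rpl10a (Rpl10a-IP), an assay that recovers RNA on ribosomes. There were 2 libraries of each kind, 8 in all, from 1 cell line with no genetic change. Nothing in the labels says whether replicates were separate cultures, so p-values measure the spread between these libraries only. That spread was pooled over genes, in part or fully.

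The input libraries of ELA were shallow. They held 159587 and 410192 reads over the 3160 genes, against 3898414 to 5380139 in the ES input and 16076207 to 23483388 in the Rpl10a-IP libraries, a 147-fold range. A single read in ELA input replicate 1 was worth 27.2 normalised counts, and the members had 15 to 194 reads there and 42 to 431 in replicate 2. The study's methods left ELA input replicate 1 out, so results that rest on it are given without it where they change. The fit used below (limma) weighed all libraries alike, so SEs, intervals and p-values that involve ELA input can be too small. A fit that leaves out an ELA input library has 1 left in that group and takes its spread from the deeper libraries. The p-values of such a fit miss the counting error of that library. Of the markers listed for naive and general pluripotency, 7 of 14 were measured and all 7 fell in total RNA, as 35.8% of all genes did (the pluripotency factor Nanog fell by 2.90 on the log2 scale), and the de novo methyltransferase genes Dnmt3a and Dnmt3b, the 2 measured of 11 primed epiblast markers, rose, as 34.5% of all genes did. In a bulk sample, fewer cells expressing a gene and less RNA per cell cannot be told apart.

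Values are normalised counts, that is, reads divided by a scaling factor of each library. To compare genes with each other, they were divided by the summed length of a gene's exons in kb. In ES input, Eed stood highest with 1229 ± 39.5 normalised counts per kb (SD, n = 2), followed by Mtf2 with 1141 ± 82.8. Phc1, Suz12 and Jarid2 came next at 600.5, 597 and 582, where the range of Suz12 over its libraries overlapped those of both others. Ezh2 (400 ± 3.39) and Rnf2 (396 ± 34.6) had overlapping ranges too. Cbx7 had 203 ± 17.8, and Pcgf3, Cbx6 and Ezh1 formed the low end with 83.4, 55.4 and 49.4. In these units 93.6% of the 3129 genes with a length lay below Eed, and 13.7% below Ezh1. In ELA input the order was led by Phc1 (821 ± 57.9), with Eed now at 431 ± 14.6, in a run of 5 genes from Mtf2 to Eed whose neighbours' ranges overlapped; Ezh1 remained the lowest at 62.7 ± 6.01. The order depends on the transcript model, since exons of all transcripts were added up and Ezh2 has 6197 bases that way but 2652 in its longest transcript. With the longest transcript as length, both ends of the order in ES input turn: Mtf2 stands above Eed, and Cbx6 below Ezh1.

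**Figure D1:**
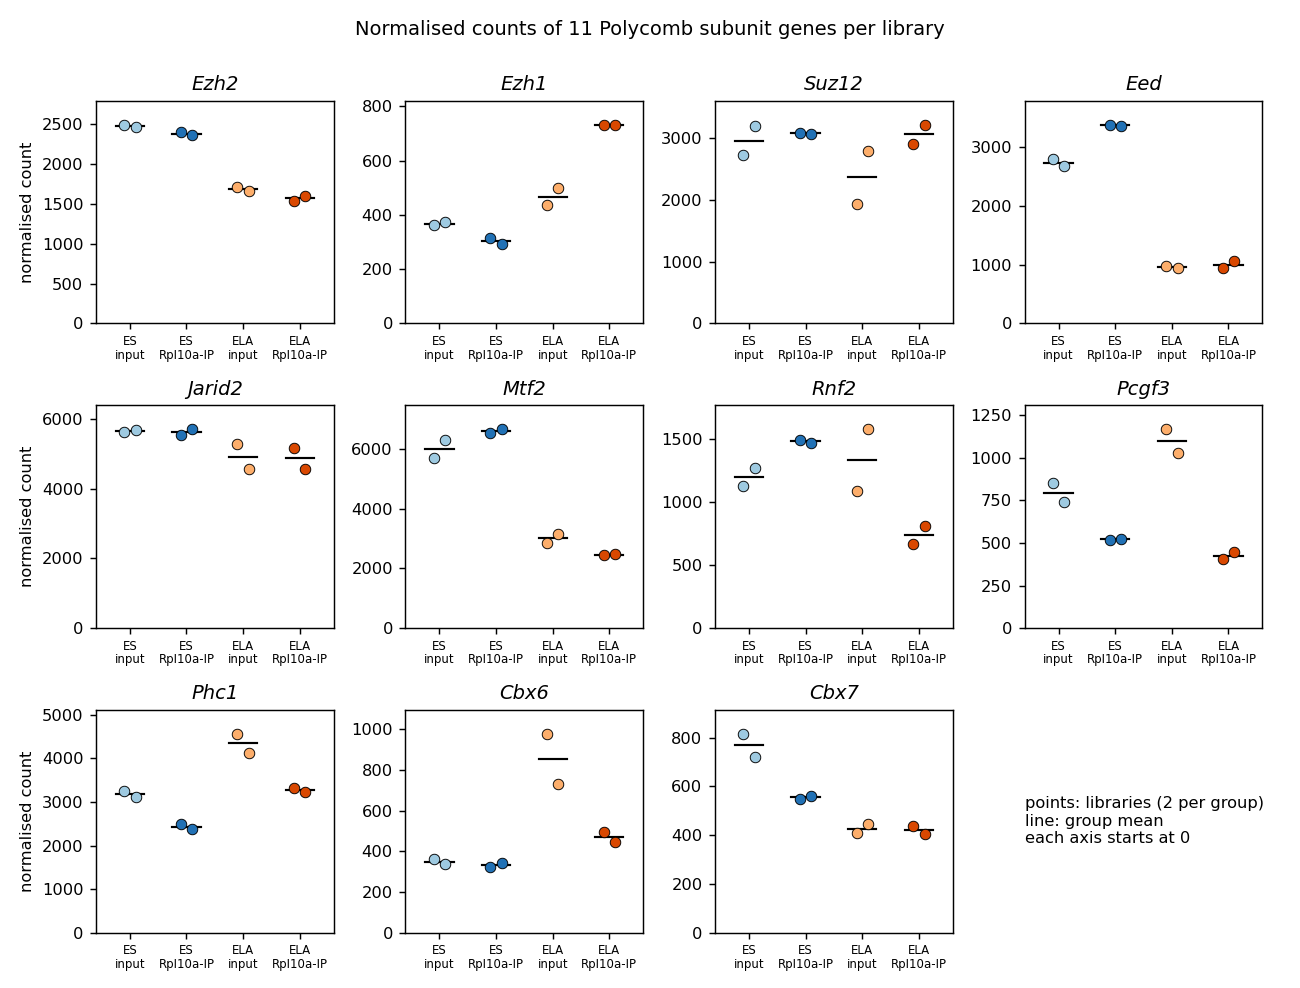
Normalised counts (y axis, from 0, own scale in each panel) of the 11 Polycomb subunit genes in the 4 groups (x axis); points are libraries and lines are group means of 2. Eed and Mtf2 are lower in every ELA library than in every ES library, Ezh1 is highest in ELA Rpl10a-IP, and the ELA input points of Suz12 and Rnf2 lie far apart.

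The first comparison asks how the total RNA of the subunits changed from ES to ELA. 4 PRC2 genes fell, most of all Eed, and of the PRC1 genes Cbx7 fell while Cbx6, Phc1 and Pcgf3 rose. Ezh1, the paralogue of Ezh2, rose as well. In the limma fit, 9 of the 11 members passed the threshold of 0.05 on the adjusted p-value, 4 higher and 5 lower in ELA. Over all 3160 genes 70.2% passed, 34.5% higher and 35.8% lower, so the members passed about as often as other genes. Their median log2 change was −0.20 and that of all genes −0.018.

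Eed, which binds the H3K27 methyl mark and stimulates PRC2, had 2788 and 2664 normalised counts in the ES input libraries and 979 and 933 in those of ELA. The groups lay far apart, and the log2 change was −1.51 (SE 0.11, adjusted p 1.49e-14), or −1.15 after a correction of the libraries for the length and GC content of transcripts, which put Mtf2 (−1.33) ahead of it. Mtf2, a Polycomb-like protein that brings PRC2 to CpG islands, had 5697 and 6313 in ES input and 2855 and 3169 in ELA input. The log2 change was −0.995 (SE 0.10, adjusted p 1.57e-10), with no overlap between stages. Ezh2, the main methyltransferase of dividing cells, had 2493 and 2463 in ES and 1713 and 1664 in ELA. It changed by −0.55 (SE 0.10, adjusted p 1.78e-05), and here too the groups did not overlap.

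Suz12, the scaffold of PRC2, was less certain. It had 2722 and 3187 in ES input but 1930 and 2788 in ELA input, so the groups overlapped. The log2 change was −0.34 (SE 0.12, adjusted p 0.0139). Without ELA input replicate 1, where 71 reads stand behind the low value, it was −0.079. Without ELA input replicate 2, which leaves those 71 reads alone in that group, it was −0.61. Without ES input replicate 2 it was −0.23 (adjusted p 0.236), and after the correction for length and GC content it was −0.57 (adjusted p 0.000111). Jarid2, a DNA-binding partner of PRC2, had 5617 and 5690 in ES and 5274 and 4569 in ELA. Its change of −0.20 (95% interval −0.41 to 0.0059, adjusted p 0.0771) did not pass with all 8 libraries, and was −0.31 without ELA input replicate 1. It passed with the deposited size factors (−0.30, adjusted p 0.0133) and after the correction for length and GC content (−0.33, adjusted p 0.00320). Ezh1, a methyltransferase of low activity known best from resting cells, had 362 and 373 in ES and 435 and 498 in ELA, the latter from only 16 and 47 reads. The rise of 0.34 (SE 0.12, adjusted p 0.0138) missed the threshold with the deposited size factors (0.24, adjusted p 0.0878), without ES input replicate 1 (0.32, adjusted p 0.0746) and without ELA input replicate 2 (0.24, adjusted p 0.0800).

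Among PRC1 genes, Cbx6, one of the chromodomain proteins, had 360 and 337 in ES input and 979 and 731 in ELA input. Its rise of 1.28 (SE 0.13, adjusted p 1.68e-10) was the largest of the members. The value was 1.07 without ELA input replicate 1, 1.49 without ELA input replicate 2 and 0.87 after the correction for length and GC content. Cbx7, the chromodomain protein tied to self-renewal of ES cells, had 815 and 720 in ES and 408 and 445 in ELA. It fell by 0.84 (SE 0.12, adjusted p 1.70e-07), with only 15 and 42 reads in ELA input, so the pair moved in opposite directions. Phc1, a Polyhomeotic protein that lets canonical PRC1 complexes join, had 3245 and 3118 in ES and 4568 and 4134 in ELA, a rise of 0.45 (SE 0.10, adjusted p 0.000229).

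Pcgf3, the PCGF subunit of a variant PRC1, had 854 and 738 in ES and 1169 and 1028 in ELA, a rise of 0.47 (SE 0.12, adjusted p 0.000873). After the correction for length and GC content it was 0.099 (adjusted p 0.462). Rnf2, the main RING E3 ligase of PRC1 in ES cells, had 1124 and 1273 in ES and 1088 and 1579 in ELA. These groups overlapped, and the change was 0.13 (95% interval −0.14 to 0.40, adjusted p 0.374). Without ELA input replicate 1 it was 0.40, and without replicate 2 it was −0.14, so the 2 ELA input libraries gave different answers for this gene.

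The second comparison asks the same of RNA on ribosomes, where the libraries were deep. 7 members fell and 3 rose in ELA Rpl10a-IP against ES Rpl10a-IP, and 10 of 11 passed the threshold, against 83.4% of all genes (41.1% higher, 42.3% lower). The median log2 change was −0.30 for the members and −0.024 for all genes. Eed had 3372 and 3349 in ES and 939 and 1057 in ELA, a log2 change of −1.75 (SE 0.09). Mtf2 had 6542 and 6672 in ES and 2448 and 2471 in ELA, a change of −1.43 (SE 0.09). These were the 2 largest falls.

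The third was that of Rnf2, whose ribosome-bound RNA was 1494 and 1473 in ES and 670 and 811 in ELA. It changed by −1.01 (SE 0.09, adjusted p 3.79e-26), in contrast to its total RNA. Ezh2 had 2403 and 2360 in ES and 1541 and 1603 in ELA (−0.60, SE 0.09). Cbx7 had 549 and 560 against 438 and 405 (−0.40, SE 0.10), and Pcgf3 520 and 526 against 406 and 446 (−0.30, SE 0.10). For Jarid2 the values were 5534 and 5705 in ES and 5167 and 4569 in ELA, and the change of −0.21 (adjusted p 0.0206) did not pass without ELA Rpl10a-IP replicate 2 (−0.12, adjusted p 0.268) without ES Rpl10a-IP replicate 2 (−0.19, adjusted p 0.114) or with all 8 libraries in the fit (adjusted p 0.0626). Pcgf3 did not pass without ELA Rpl10a-IP replicate 1 (−0.23, adjusted p 0.0564).

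Ezh1 rose most on ribosomes. It had 313 and 293 normalised counts in ES Rpl10a-IP and 731 and 733 in ELA Rpl10a-IP, a log2 change of 1.27 (SE 0.11, adjusted p 1.52e-32) or 2.41-fold. Phc1 had 2496 and 2369 in ES and 3311 and 3241 in ELA (0.43, SE 0.09). Cbx6 had 321 and 345 in ES and 497 and 445 in ELA, a rise of 0.50 (SE 0.11, adjusted p 4.58e-06) that turned to −0.26 (adjusted p 0.0117) after the correction for length and GC content. The same correction took Phc1 to 0.12 (adjusted p 0.119), Ezh2 to −0.19, Pcgf3 to −0.94 and Jarid2 to −0.72, the last 3 still past the threshold. It also changed the order of the falls, with Mtf2 at −1.45, Eed at −1.15 and Rnf2 at −0.67, behind Pcgf3 and Jarid2. Suz12 was the member that did not pass, with 3079 and 3068 in ES and 2897 and 3212 in ELA and a change of −0.011 (95% interval −0.19 to 0.16).

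**Figure D2:**
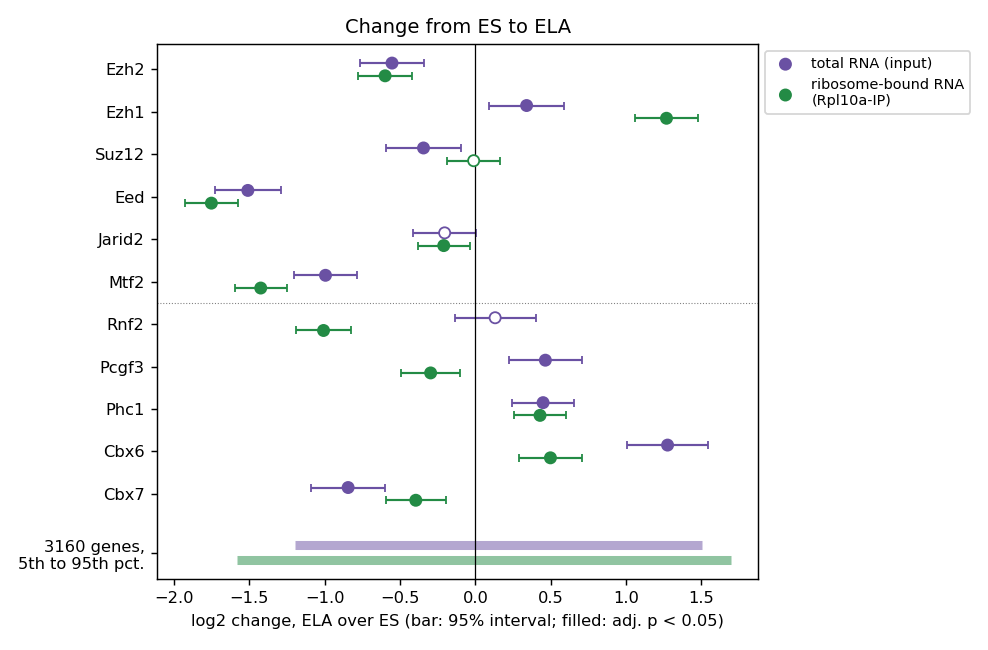
Log2 change from ES to ELA (x axis) of each member in total RNA and in ribosome-bound RNA; bars are 95% intervals of the limma fit, filled points passed the threshold, and the 2 bands at the foot show the 5th to 95th percentile of all 3160 genes. Both changes of Ezh2, Eed and Phc1 lie close together, while Rnf2 fell on ribosomes (−1.01) with a total RNA change of 0.13, and Ezh1 rose by 1.27 on ribosomes against 0.34 in total RNA.

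Paralogues can also be compared within a library, as a ratio of their reads, which no scaling can move. The ratio of Ezh1 to Ezh2 reads was 0.145 and 0.151 in ES input, 0.130 and 0.124 in ES Rpl10a-IP, 0.254 and 0.299 in ELA input, and 0.474 and 0.457 in ELA Rpl10a-IP. Every ELA library thus lay above every ES library, by 1.87-fold between the means of the input libraries and 3.66-fold between those of the Rpl10a-IP libraries. The reads are not corrected for length, so the ratio tells how the balance of reads changed and not how much of each RNA was present. A trend with transcript length or GC content can still move it, and no corrected ratio was computed. After that correction the ribosome-bound changes of Ezh1 and Ezh2 were 0.99 and −0.19, against 1.27 and −0.60 before it. With 2 libraries against 2, an exact two-sided permutation test cannot give a p below 0.333.

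The ratio of Cbx6 to Cbx7 reads was 0.442 and 0.469 in ES input and 2.40 and 1.64 in ELA input, a 4.44-fold difference of means. On ribosomes it was 0.584 and 0.616 in ES and 1.13 and 1.10 in ELA, which is 1.86-fold. After the length and GC correction the ribosome-bound changes of Cbx6 and Cbx7 were −0.26 and −0.55, against 0.50 and −0.40 before it. Eed and Suz12, both part of every PRC2, moved apart. Their ratio was 1.02 and 0.836 in ES input and 0.507 and 0.335 in ELA input, and in the deep Rpl10a-IP libraries 1.10 and 1.09 in ES against 0.324 and 0.329 in ELA, 3.35-fold lower in ELA. With the correction the ribosome-bound changes of Eed and Suz12 were −1.15 and −0.081, against −1.75 and −0.011 without it. The ratio of Pcgf3 to Rnf2 reads did not separate the stages in the input, with 0.759 and 0.580 in ES and 1.08 and 0.651 in ELA, and on ribosomes it was 0.348 and 0.357 in ES and 0.606 and 0.550 in ELA.

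**Figure D3:**
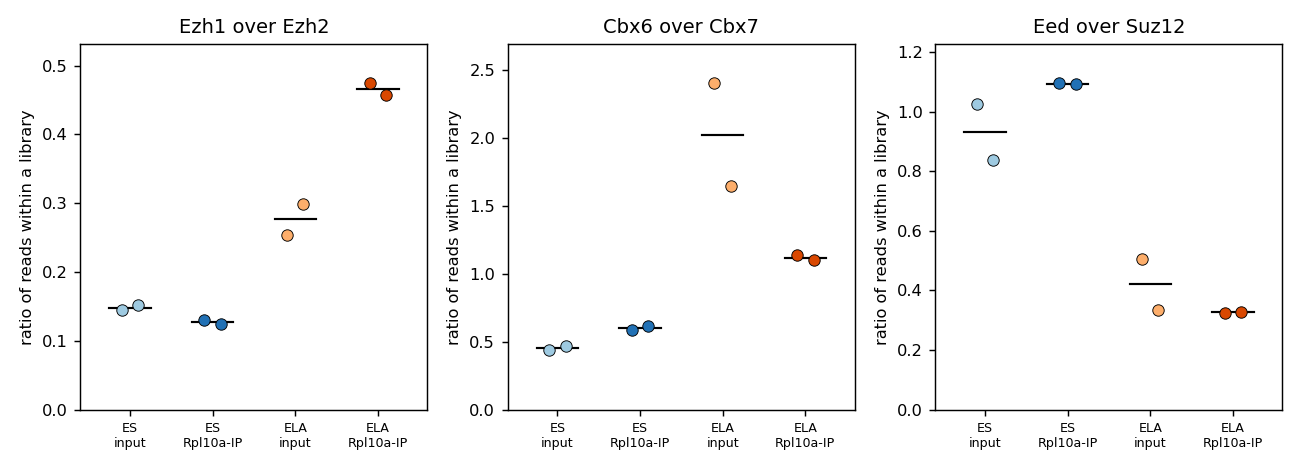
Ratio of reads of 2 members within each library, for 3 of the 4 pairs computed (y axis, from 0) in the 4 groups (x axis); points are libraries and lines are group means of 2. Ezh1 over Ezh2 and Cbx6 over Cbx7 are higher in all 4 ELA libraries than in all 4 ES libraries, and Eed over Suz12 is lower. The ratios are not corrected for length or GC content.

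The promoters of these paralogue pairs are shown because their total RNA moved in opposite directions. Each runs from 250 bases before to 50 bases after the transcription start on the strand of the gene, 5′ to 3′, in RefSeq's GRCm38.p6, the assembly of which mm10 is the browser name, with CpG dinucleotides in capitals. Ezh2 lies on the minus strand of chromosome 6 (promoter chr6:47594981-47595280), Ezh1 on that of chromosome 11 (chr11:101226414-101226713), and Cbx6 (chr15:79834284-79834583) and Cbx7 (chr15:79932597-79932896) on that of chromosome 15, with starts 98313 bases apart. The annotated spans of Cbx7 (79915804 to 79971143) and Ezh2 (47530274 to 47595270) reach further upstream than the starts used for their windows, which therefore lie inside the gene, wholly for Cbx7 and for all but the outermost bases for Ezh2.
Ezh2: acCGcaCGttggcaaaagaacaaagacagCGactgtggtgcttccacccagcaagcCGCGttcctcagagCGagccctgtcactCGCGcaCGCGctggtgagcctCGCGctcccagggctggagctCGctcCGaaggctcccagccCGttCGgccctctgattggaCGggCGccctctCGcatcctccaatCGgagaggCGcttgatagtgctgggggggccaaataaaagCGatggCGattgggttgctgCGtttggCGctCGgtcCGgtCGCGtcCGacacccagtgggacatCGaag
Ezh1: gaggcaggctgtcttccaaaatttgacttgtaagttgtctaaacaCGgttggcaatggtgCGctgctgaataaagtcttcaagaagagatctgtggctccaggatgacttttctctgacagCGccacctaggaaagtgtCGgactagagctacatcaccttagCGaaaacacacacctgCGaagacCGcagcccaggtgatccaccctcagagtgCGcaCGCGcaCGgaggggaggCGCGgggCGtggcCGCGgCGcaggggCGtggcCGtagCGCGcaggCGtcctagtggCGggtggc
Cbx6: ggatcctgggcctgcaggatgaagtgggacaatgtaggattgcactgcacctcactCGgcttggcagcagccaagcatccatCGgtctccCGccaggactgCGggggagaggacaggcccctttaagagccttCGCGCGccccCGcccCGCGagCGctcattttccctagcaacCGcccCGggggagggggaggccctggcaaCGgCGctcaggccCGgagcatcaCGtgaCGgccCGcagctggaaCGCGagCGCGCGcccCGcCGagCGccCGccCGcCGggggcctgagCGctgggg
Cbx7: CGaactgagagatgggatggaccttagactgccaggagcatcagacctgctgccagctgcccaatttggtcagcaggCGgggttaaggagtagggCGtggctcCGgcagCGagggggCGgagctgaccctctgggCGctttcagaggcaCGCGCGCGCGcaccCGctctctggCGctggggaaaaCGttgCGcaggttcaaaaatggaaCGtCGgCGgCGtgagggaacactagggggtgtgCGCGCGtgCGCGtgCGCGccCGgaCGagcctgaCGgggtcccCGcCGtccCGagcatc

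These 4 windows hold 31, 23, 31 and 33 CpG. The 13 promoter entries of the 11 members had a median of 24, as did the 3145 entries of the tested genes, and all 32851 mouse entries had a median of 7. The lowest of the members were Phc1 with 9 and the second start of Mtf2 with 2. The letters TTTNNCGC, a pattern that many E2F sites fit, were found on either strand in 2 of the 13 entries, those of Ezh2 and Suz12, and in 10.3% of the entries of the tested genes. CCAAT was found in 7 of the 13, with 3 copies in Ezh2 and none in Ezh1 or Cbx6, and in 38.8% of the tested genes' entries. TATAAA stood in 1 of the 13, a second start of Jarid2, and in 6.52% of those of the tested genes. The patterns were searched separately, so their matches may overlap, and a match of letters describes the sequence only.

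The third comparison asks which subunit RNAs were over- or under-represented on ribosomes in each stage. Ribosome enrichment was taken as the log2 difference between Rpl10a-IP and input libraries, so that a gene on ribosomes as often as the average gene has a value near 0. In ES, 6 members passed, 2 higher and 4 lower in Rpl10a-IP, with 39.5% of all genes passing (19.5% higher, 20.0% lower). That background depended on the libraries in the fit. Of the 3160 genes, 1247 passed with 7 libraries, which leave out ELA input replicate 1, and 762 with all 8, where 4 members passed. Without ES Rpl10a-IP replicate 1 the count was 722 genes and 3 members, and without replicate 2 it was 753 genes and 5 members. Eed (0.30, SE 0.09, adjusted p 0.00396) and Rnf2 (0.31, SE 0.09, adjusted p 0.00420) were over-represented, and Pcgf3 (−0.60, SE 0.10), Cbx7 (−0.47, SE 0.10), Phc1 (−0.39, SE 0.09) and Ezh1 (−0.28, SE 0.11, adjusted p 0.0250) were under-represented. The largest of these differences, that of Pcgf3, was 1.52-fold. With all 8 libraries in the fit Rnf2 (adjusted p 0.0811) and Ezh1 (adjusted p 0.0930) did not pass, nor did they after the correction for length and GC content (0.15 and −0.21), which took Cbx7 to −0.26. Rnf2 also missed the threshold without ES input replicate 1 (0.22) or ES Rpl10a-IP replicate 1 (0.30), and Ezh1 without ES input replicate 2 (−0.26), ES Rpl10a-IP replicate 1 (−0.33) or replicate 2 (−0.23). Without ES Rpl10a-IP replicate 1, Eed did not pass either (0.30, adjusted p 0.0522).

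In ELA, 7 members passed, 2 higher and 5 lower, with 74.0% of all genes passing (36.8% higher, 37.2% lower). The median over members was −0.10 and over all genes −0.012. All PRC1 genes but Cbx7 were under-represented on ribosomes: Pcgf3 by −1.36 (SE 0.12), Cbx6 by −0.85 (SE 0.13), Rnf2 by −0.83 (SE 0.13) and Phc1 by −0.41 (SE 0.10). Without ELA input replicate 1 Cbx6 was at −0.64 and Rnf2 at −1.10. Without ELA input replicate 2 Cbx6 was at −1.06 and Rnf2 at −0.56. Of the PRC2 genes Ezh1 was over-represented by 0.65 (SE 0.12, adjusted p 1.55e-05). Suz12 was at 0.39 (SE 0.12, adjusted p 0.00494) with all 8 libraries. It was at 0.13 without ELA input replicate 1 and at 0.66 without ELA input replicate 2, so these libraries gave different answers. Without ELA Rpl10a-IP replicate 2 it was at 0.32. Mtf2 was at −0.29 (SE 0.10, adjusted p 0.0114), a call lost without ELA input replicate 2 (−0.22, adjusted p 0.0611), without ELA Rpl10a-IP replicate 1 (−0.28, adjusted p 0.0542) and after the length and GC correction (−0.13, adjusted p 0.176).

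Ezh2 did not pass in either stage. Its log2 enrichment was −0.057 (95% interval −0.23 to 0.12) in ES and −0.10 (−0.31 to 0.11) in ELA. Jarid2 had −0.0088 (−0.18 to 0.16) in ES and −0.015 (−0.22 to 0.19) in ELA, although the latter was −0.42 (adjusted p 0.000372) after the correction for length and GC content. Cbx7 had −0.016 (−0.26 to 0.23) in ELA. The same correction moved the ELA values of Ezh1 to 0.38, Rnf2 to −0.49 and Phc1 to −0.64, and made Eed pass at 0.32 (adjusted p 0.00429) from 0.060.

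**Figure D4:**
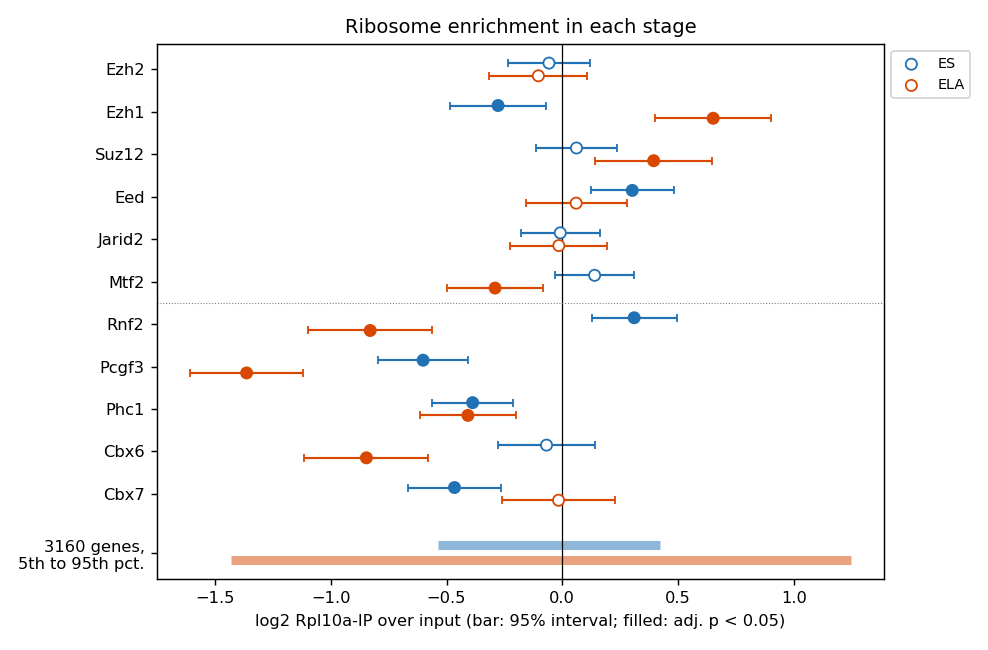
Log2 of Rpl10a-IP over input (x axis) of each member in ES and in ELA; bars are 95% intervals of the limma fit, filled points passed the threshold, and the 2 bands at the foot show the 5th to 95th percentile of all 3160 genes in each stage. Rnf2 passes from 0.31 in ES to −0.83 in ELA and Ezh1 from −0.28 to 0.65, while Ezh2, Jarid2 and Phc1 stay at about the same place.

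Whether the enrichment itself differed between the stages was tested as an interaction of stage and fraction. 6 members passed, 2 higher and 4 lower in ELA, with 56.2% of all genes passing (28.4% higher, 27.7% lower). The median was −0.046 over the members and 0.0084 over all genes. Ezh1 gained 0.93 on the log2 scale (SE 0.17, adjusted p 3.02e-05). Rnf2 lost most, with −1.14 (SE 0.19, adjusted p 4.34e-06), followed by Cbx6 with −0.78 (SE 0.19, adjusted p 0.000629) and Pcgf3 with −0.76 (SE 0.17, adjusted p 0.000281). These 4 genes passed under each scaling, filter and left-out library that was run, and after the length and GC correction at 0.59, −0.64, −1.13 and −1.04.

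The calls on Mtf2 (−0.43, SE 0.14, adjusted p 0.0118) and Cbx7 (0.45, SE 0.17, adjusted p 0.0249) were less firm. After the length and GC correction Mtf2 was at −0.12 (adjusted p 0.440) and Cbx7 at 0.33 (adjusted p 0.0850), and total reads as the scaling took Cbx7 to 0.36 (adjusted p 0.0723). Mtf2 also did not pass without ES input replicate 1 (−0.36, adjusted p 0.0805) or ES Rpl10a-IP replicate 2 (−0.42, adjusted p 0.0519). Cbx7 did not pass without ES input replicate 1 (0.36, adjusted p 0.123), either ES Rpl10a-IP library (0.44 and 0.46) or ELA Rpl10a-IP replicate 1 (0.39, adjusted p 0.101). In the other direction Suz12 (0.33, adjusted p 0.105) passed after the correction (0.49, adjusted p 0.0131) and with the replicate number as a block in the fit. It stood at 0.60 without ELA input replicate 2 but at 0.068 without ELA input replicate 1. Jarid2 (−0.39, adjusted p 0.0164) and Phc1 (−0.37, adjusted p 0.0173) passed after the correction from values of −0.0061 and −0.020.

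**Figure D5:**
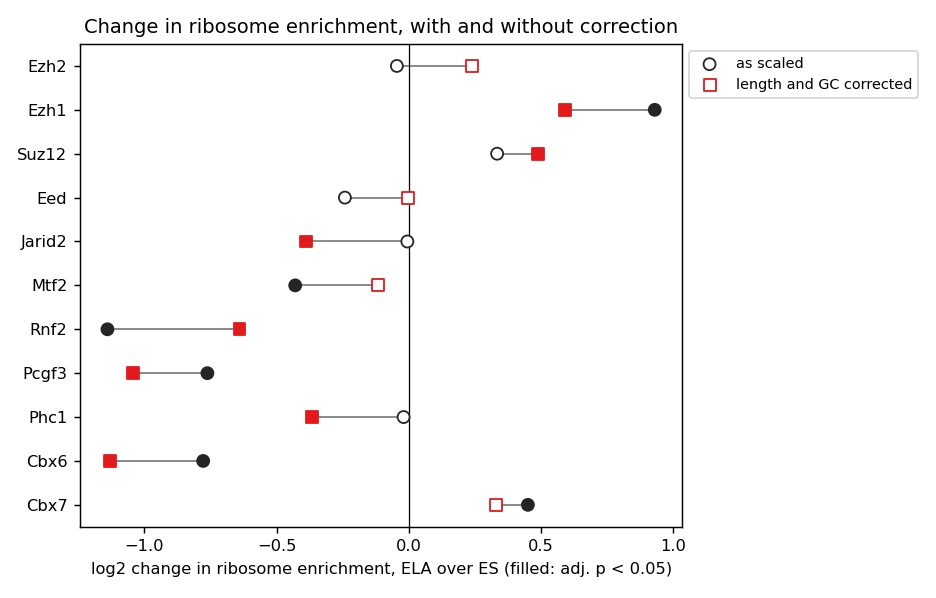
Log2 change in ribosome enrichment from ES to ELA (x axis) for each member as scaled and after the correction for length and GC content; filled points passed the threshold. Ezh1, Rnf2, Pcgf3 and Cbx6 pass both ways, Mtf2 and Cbx7 only without the correction, and Suz12, Jarid2 and Phc1 only with it.

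Transcript length moved with these changes over the whole table. Across 3116 genes, which are not independent replicates, Spearman's rho between the length of the longest transcript and the change in ribosome enrichment was 0.442, and with the change in ribosome-bound RNA it was 0.605. Members were close to the middle of the table, with a median length of 4207 bases against 3693 and a median GC content of 47.8% against 48.0%. Within the members, Rnf2 (3028 bases) and Ezh1 (4207 bases) changed in opposite directions, and the longest, Pcgf3 (7708 bases), lost enrichment. The part of length in the single results was not tested beyond the correction.

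Other genes of the pathway were taken from lists. Their values, here and in the next paragraph, are as scaled. They were not checked with the length and GC correction or with left-out libraries. Rbbp4, the histone chaperone that is the remaining measured gene of the PRC2 core list (5 measured of 6), had a total RNA change of −0.0022 (adjusted p 0.986) and a ribosome-bound change of 0.042 (adjusted p 0.658), and was over-represented on ribosomes in ES (0.25) and in ELA (0.30). Lcorl, the third measured of 9 PRC2 accessory genes, rose by 1.41 in total RNA and by 0.96 on ribosomes. Of 24 partners of variant PRC1, 11 were measured. In total RNA Bcor (0.44) and Hdac2 (0.50) rose and 5 fell (Usp7, Skp1a, Tfdp1, L3mbtl2 and Wdr5), and on ribosomes 2 rose and 6 fell, with medians of −0.21 and −0.19. Of all genes 34.5% rose and 35.8% fell in total RNA and 41.1% rose and 42.3% fell on ribosomes, with medians of −0.018 and −0.024. Rybp, which binds Rnf2 in variant PRC1 in place of a CBX protein, changed by −0.075 (adjusted p 0.532) in total RNA and −0.999 on ribosomes, and its enrichment fell by 0.92. Of the 11 partners, the enrichment of 3 fell (Rybp, Skp1a and Hdac2) and that of 2 rose (Mga and Bcor), against 27.7% and 28.4% of all genes. The 2 that rose on ribosomes were Bcor, a PCGF1 partner (0.96), and Mga, a PCGF6 partner (0.77).

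Of 14 genes of the H2A deubiquitinase complex and other Polycomb group proteins, 9 were measured; 7 rose and 1, Sfmbt2, fell by 1.77 on ribosomes (median 0.47), with 41.1% of all genes rising and 42.3% falling. In total RNA Bap1, Foxk1 and Yy1 rose while Asxl1, Foxk2 and Sfmbt2 fell. The enrichment of 5 of them rose, those of Asxl1 (0.70), Foxk2 (0.74), Hcfc1 (1.08), Ogt (0.72) and Sfmbt1 (0.85), and that of Yy1 (−0.48) and Sfmbt2 (−0.38) fell, with 28.4% of all genes rising and 27.7% falling. Kdm6a and its homologue Uty were the 2 measured of 3 H3K27 demethylase genes, and both were over-represented on ribosomes in both stages, as 19.5% of all genes were in ES, with 7 libraries in the fit, and 36.8% in ELA. Kdm6a, which removes the H3K27 methyl mark, had an enrichment of 0.51 in ES and 1.44 in ELA, with a total RNA change of −0.077 (adjusted p 0.534). Of 23 Trithorax and COMPASS genes, which set the opposing H3K4 mark, 10 were measured, with 6 higher and 4 lower in total RNA and 5 higher (Kmt2d, Setd1a, Men1, Ncoa6 and Paxip1) and 4 lower (Ash2l, Wdr5, Wdr82 and Pagr1a) on ribosomes, where 70.2% and 83.4% of all genes passed. Of 26 textbook targets of Polycomb in ES cells, the table held 1, Bmp4, which fell by 1.08 in total RNA and 2.57 on ribosomes, so the targets' response could not be described. Of the listed early neural markers the table held Nes, which rose by 2.51 in total RNA and 2.08 on ribosomes, and of the fibroblast markers Vim, which fell by 0.90 and 1.51; their part in the results was not tested. No primitive endoderm or trophoblast marker, of 6 listed each, was among the genes of the table.

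The profiles most like those of 3 members over the 8 libraries were looked up by Pearson's r of log2(normalised count + 1). They were Capns1 (0.998), Cep55 (0.998) and Apobec3 (0.997) for Ezh2, Hmmr (0.967), Usp26 (0.957) and Baz1a (0.952) for Suz12, and Topors (0.982), Gabpa (0.969) and Ccna2 (0.958) for Rnf2. For Ezh2 201 genes had r above 0.95, against 4 for Suz12 and 6 for Rnf2. The libraries fall into 4 groups and share their depths, so these values describe a common pattern between groups. In the annotation Cbx7 (chromosome 15, 79915804 to 79971143) overlaps Apobec3, Cbx6 (79823898 to 79834333) lies within the span of Npcd, and Ezh2 (chromosome 6, 47530274 to 47595270) meets the lncRNA F830010H11Rik at its 5′ end. How the counting treated strand is not given in the sources used here, so counts of these 3 members may hold reads of the overlapping gene.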

How the data were processed

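RNA of mouse E14Tg2A ES cells and ELA was measured in 8 libraries, in 4 groups of 2 by the sample titles. Per the labels and the methods, the authors mapped reads to mm10 with TopHat2, counted them per gene with htseq-count and divided each library by a DESeq2 size factor. The deposited signal is these normalised counts, whose size factors behave as if computed within each fraction. Every value was a whole multiple of 1 read (within 0.001), so reads were read back. In the deposited values the larger mean input was at least 50.02 in every gene, and the SD of the 2 ratios at most 0.1998 of their mean. The methods state the spread filter for counts, but the values show it for ratios. Genes whose ratios differed between replicates are thus not in the table, and p-values for enrichment may be too low. The other 26 columns, among them the authors' means, SDs, ratios and fold changes of ribosome load, were not used.

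Reads were scaled with trimmed-mean-of-M-values factors (trims 0.3 and 0.05), and log2(normalised count + 1) was fitted with limma 3.58.1 in R 4.3.3 (lmFit, eBayes with a trend, 1 coefficient per group) over all 3160 genes, with Benjamini-Hochberg adjustment and a threshold of 0.05. Fold changes on this scale understate those of low genes. ES enrichment and the bound-RNA comparison used 7 libraries, without ELA input replicate 1 as in the study's methods. The other comparisons used all 8, so that ELA input had 2 libraries, with the 7 as an alternative. The prior degrees of freedom were infinite with 7 libraries. All SEs and p-values of those comparisons thus rest on a variance pooled over genes of like level, not on the gene's own spread. With 8 libraries they were 30.7, so p-values there lean mostly on the pooled variance. The anti-GFP control pull-downs that the protocol mentions were not used here. The fit was also run on simulated counts, in which few genes changed and all libraries shared the same dispersion. That run does not vouch for the p-values given here. Transcript lengths and GC content came from an NCBIM37 gene set (3116 genes matched), used for lengths only. Coordinates and promoters came from RefSeq (GRCm38.p6), where all 11 members matched. The alternatives were other scalings, pseudocounts of 0.5 and 10, at least 10 reads in every library, the other set of libraries, the replicate number as a block, a loess correction for length and GC content (span 0.5) and leaving out each library. All genes that the naming rule found are named. Members and lists were chosen with earlier results of these data known, and no list was tested.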

Additional observations from a re-analysis of the deposited data

Results flagged for a closer look

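The enrichment on ribosomes differed between ES and ELA, by the interaction of stage and fraction, in 6 of the 11 members. Ezh1 gained 0.93 on the log2 scale and Cbx7 0.45. Mtf2 lost enrichment, with −0.43, as did Pcgf3 with −0.76, Cbx6 with −0.78 and Rnf2 with −1.14. In Rnf2 and Ezh1 the enrichment had opposite signs in the 2 stages and passed the threshold in each, but their ES values did not pass with all 8 libraries (adjusted p 0.0811 and 0.0930), after the length and GC correction (0.15 and −0.21) or without some single ES libraries. The share of all genes that passed this test was 56.2%.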

How the results depend on the processing

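Of 759 values of single members under an alternative, 664 kept their direction and their side of the threshold, 42 no longer passed, 17 newly passed and 36 changed sign. The causes of these shifts were not tested. Where a left-out library leaves 1 in its group, that one is assumed to vary like the other groups. Count models (edgeR, DESeq2, voom weights) were not run: tests were kept to the unit of the deposited values, normalised counts, although the reads read back would permit such models. The deposited size factors were not run for the 2 enrichments, since they were set within each fraction. With 8 libraries, the calls in ES enrichment were 762 in place of 1247. Leaving out single libraries gave 722 to 1348 calls over all genes and 3 to 6 over the members. With the longest transcript as length, the members' median level, taken in each ES input library and averaged over both, was 676 normalised counts per kb in place of 411. The only called value that changed sign was the ribosome-bound RNA of Cbx6, −0.26 with the length and GC correction, with or without the replicate block. The same 2 settings turned values that did not pass: in ES enrichment Suz12 to −0.082, Mtf2 to −0.013 and Cbx6 to 0.069, in ELA enrichment Ezh2 to 0.12 and Cbx7 to 0.068, in total RNA Rnf2 to −0.033, and in the change of enrichment Ezh2 to 0.24. Total reads as the scaling turned Eed in ELA enrichment to −0.051. Median-of-ratios scaling turned Jarid2 in ELA enrichment to 0.00069 and in the change of enrichment to 0.0032. Without ELA input replicate 1, Jarid2 turned to 0.089 in ELA enrichment and 0.097 in the change of enrichment, and Phc1 to 0.052 in the latter. Over the other left-out libraries, ES enrichment ranged from −0.052 to 0.18 for Suz12 and −0.031 to 0.013 for Jarid2, and ELA enrichment from −0.026 to 0.15 for Eed, −0.12 to 0.074 for Jarid2 and −0.073 to 0.047 for Cbx7. Total RNA of Rnf2 ranged from −0.14 to 0.22 and bound RNA of Suz12 from −0.085 to 0.063. The change of enrichment ranged from −0.11 to 0.083 for Jarid2 and −0.092 to 0.017 for Phc1.

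The replicate number as a block gave 1320, 2414, 2299, 2650 and 1894 calls for ES enrichment, ELA enrichment, total RNA, ribosome-bound RNA and change of enrichment, and made Suz12 pass in the last (0.33, adjusted p 0.0394). It changed no other call of a member. The protocol takes the input from the lysate used for the pull-down, but no label says that the numbers mark a lysate, so with 2 pairs a comparison the pairing could not be settled. Deviations of same-numbered libraries correlated at 0.170 between the ES fractions, 0.504 between the ELA fractions, 0.153 between the inputs and −0.02 between the Rpl10a-IP libraries. The deposited genes are those whose same-numbered ratios lay close, which favours a correlation between the fractions of a stage. These values therefore cannot decide the pairing. With the block and the correction together the counts were 1206, 2288, 2174, 2411 and 1646.

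Precision is limited by the ELA input. For 15 reads, those of Cbx7 in replicate 1, the exact 95% Poisson interval is 8.40 to 24.7 reads, and for Ezh1 with 16 reads it is 9.15 to 26.0. These intervals cover counting error only. The fit did not weigh libraries by depth. For total RNA its SEs of Cbx7 and Ezh1, 0.12 each, are smaller than counting error alone would give. The SEs, 95% intervals and p-values of total RNA, ELA enrichment and change of enrichment are therefore too small for members with few ELA input reads.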
